A study of Mus musculus with 2931 samples.

Results

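The junctions between endothelial cells (EC) of the mouse lung are described here through 10 genes of the count table, taken by their symbols: Cdh5, Pecam1, Cldn5, Ocln, Tjp1, Cgnl1, Esam, Jam2, Jam3 and F11r. All 10 were found among its 18072 gene symbols, and all 10 passed the filter on low counts in every comparison. They were measured in 2931 single EC of the distal lung, sorted into plates and sequenced with Tn5-cut libraries without molecular identifiers. The cells came from 10 mice. Normal-air mice were taken before birth at stage E18.5 or at postnatal days 1, 7 and 21 (P1, P7, P21), and a further P7 group had been kept in hyperoxia, which is air with raised oxygen. Each of these 5 groups held 1 female and 1 male mouse. Strain, genotype and oxygen level are not given in the sources used here. A mouse name may stand for 1 animal or a pool, so n counts mouse names. The authors gave each cell 1 of 10 subtype labels.

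An endothelial layer is held together by adherens junctions and tight junctions. VE-cadherin (Cdh5) carries the adherens junction through contacts between like molecules, and PECAM-1 (Pecam1, the surface protein CD31) joins neighbouring cells outside both structures. Tight junctions seal the space between cells with claudins, of which claudin-5 (Cldn5) is the main endothelial member, and with occludin (Ocln). On the inner face, ZO-1 (Tjp1) ties these proteins to actin, and paracingulin (Cgnl1) is a scaffold of the same plaque. ESAM and the junctional adhesion molecules JAM-A (F11r), JAM-B (Jam2) and JAM-C (Jam3) are immunoglobulin-type adhesion proteins at the cell border. In the lung this barrier keeps plasma out of the air spaces, and lymphatic vessels use looser, discontinuous junctions to take up fluid.

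The mice had 212 to 359 cells and medians of 188609.5 to 928377 reads per cell, with the lowest depth in the male P7 mouse and the fewest genes per cell (median 1831) in the male P21 mouse. The sort gate in the cell names was CD31 for 2694 cells, so the product of Pecam1 itself chose most cells. The pan-endothelial markers (Kdr, Tek, Tie1, Emcn) summed to 1242 to 6529 CPM (counts scaled to a fixed total of reads per sum) in every class of every mouse with at least 8 cells. The lists for other cells stayed low in the same sums: up to 171.0 CPM for leukocyte genes, 193.3 for epithelial genes and 163.1 for platelet genes, and up to 305.7 for mesenchymal genes, the last in 1 proliferative sum. Each subtype's own marker list, summed over its genes, was highest in its own class by the median. Single genes did not all follow. In the Car4- list, Gpihbp1 and Kit were highest in Car4- cells (medians of 2155 and 414.7 CPM). Plvap and Aplnr were higher in venous EC (2081 and 669.3 CPM, against 1526 and 326.5 in Car4- cells). Reads were summed per mouse and class, with Early and Late Car4- capillaries as 1 class. Fewer cells with the RNA and less RNA per cell cannot be told apart in such a sum. The counts are of RNA, and hold no measure of protein levels or junction structure. The subtype labels were made from these same cells, so a subtype test measures agreement over mice and is not independent of the labels.

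In Car4- capillaries, the general capillary class and the largest one, the level per kilobase of exon put the claudin first. Cldn5 averaged 1893 CPM per kb ± 736.3 (SD, n = 7 normal-air mice), followed by Esam at 490.8 ± 164.7. Pecam1 (227.0 ± 44.45), Cdh5 (219.3) and F11r (218.0 ± 110.7) lay close together. The plaque gene Tjp1 followed at 48.9 ± 15.58 and Jam2 at 33.8 ± 10.97. Ocln (10.8 ± 7.192), Cgnl1 (6.97 ± 4.546) and Jam3 (4.47 ± 3.324) were lowest on this scale. Pecam1, Cdh5 and F11r differed by less than 1 SD, and the spans of mean and SD of Ocln, Cgnl1 and Jam3 overlapped. The low genes were also carried by fewer cells, taken over the sums with a read of all classes in both air groups. There the cell with most reads held a median of 40.3% of Ocln reads, 50.9% of Jam3 reads and 36.0% of Cgnl1 reads. For Cdh5, Pecam1, Cldn5 and F11r that median was between 12.75% and 15.63%. In the normal-air Car4- sums other than the female E18.5 one, that cell held 12.91% to 32.78% of Ocln reads. It held 14.32% to 44.42% for Jam3 and 6.902% to 41.11% for Cgnl1, against 1.738% to 13.28% for Cdh5, Pecam1, Cldn5 and F11r. The female E18.5 Car4- sum went the other way, with 27.78% to 76.44% for these last genes, and held only 1 read of Cgnl1. The sums of the low genes thus mostly rest on fewer cells.

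**Figure D1:**
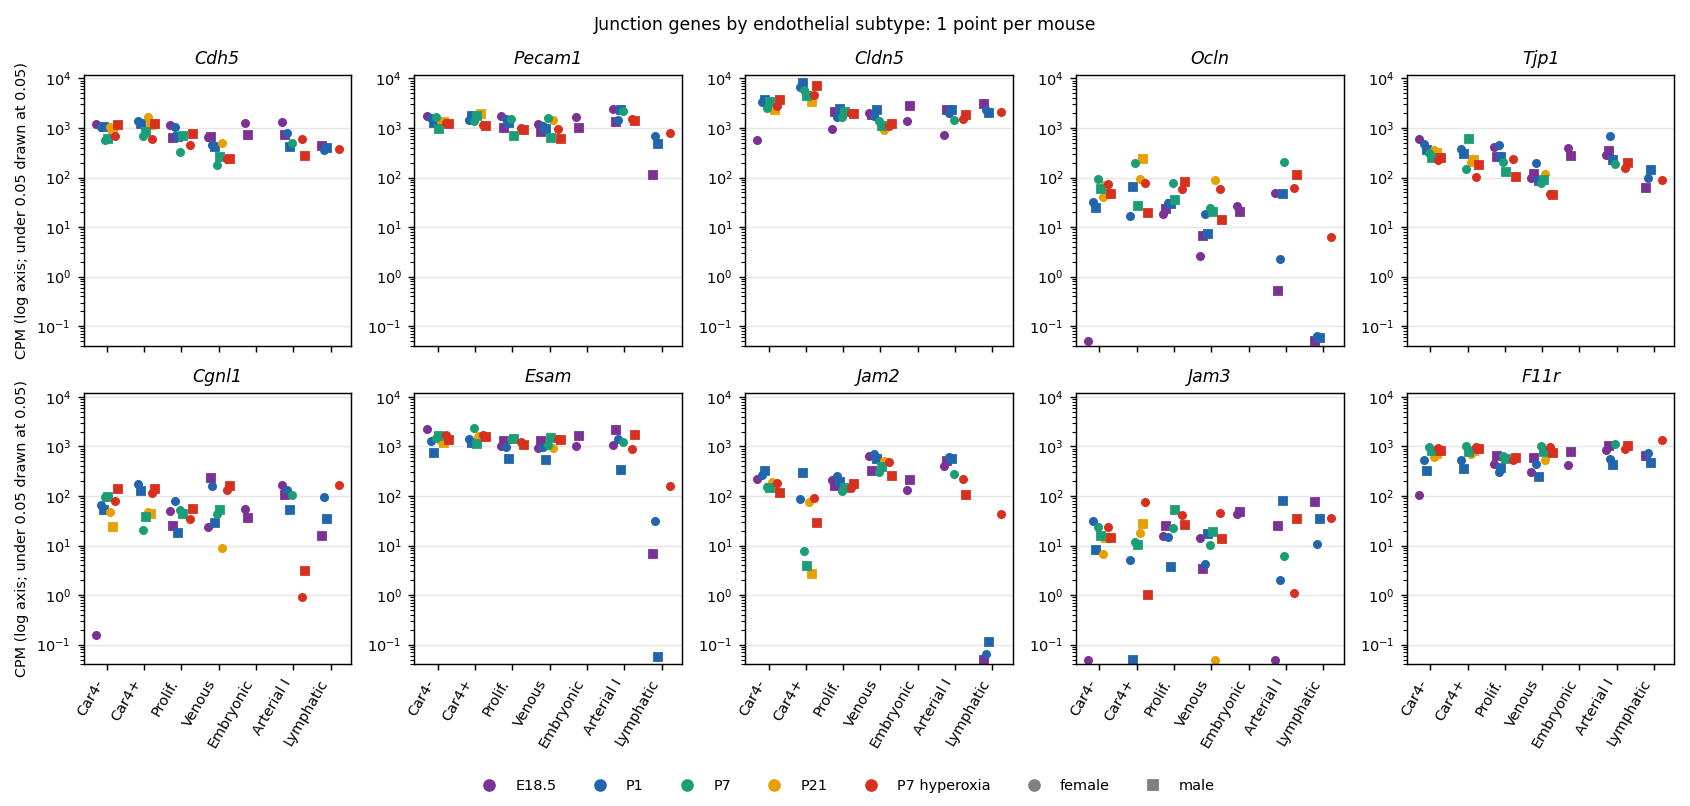
CPM of the 10 junction genes (log axis) in each subtype class, with 1 point per mouse and class of at least 8 cells, coloured by group, circles for females and squares for males, and values under 0.05 drawn at 0.05. Cldn5 is highest in the Car4+ class, Jam2 in the venous and arterial I classes, and Jam2, Esam and Ocln drop in the lymphatic class of the normal-air mice.

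The figure of detection by label gives the same genes as cells with a read at a fixed 50000 reads per cell. Cdh5 was read in 826 of 837 Early Car4- cells and in 78 of 82 lymphatic cells, and Pecam1 in 827 of 837 and 75 of 82. Jam2 was read in 175 of 201 venous cells, in 54 of 332 Car4+ cells and in 2 of 82 lymphatic cells. Before thinning, these counts were 185 of 203, 74 of 332 and 5 of 82, at median depths of 854234, 639251 and 732645.5 reads per cell. Late Car4- cells, which came mostly from the P21 mice, had the shallowest median depth (457303 reads) and lower shares than Early Car4- cells for all 10 genes.

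**Figure D2:**
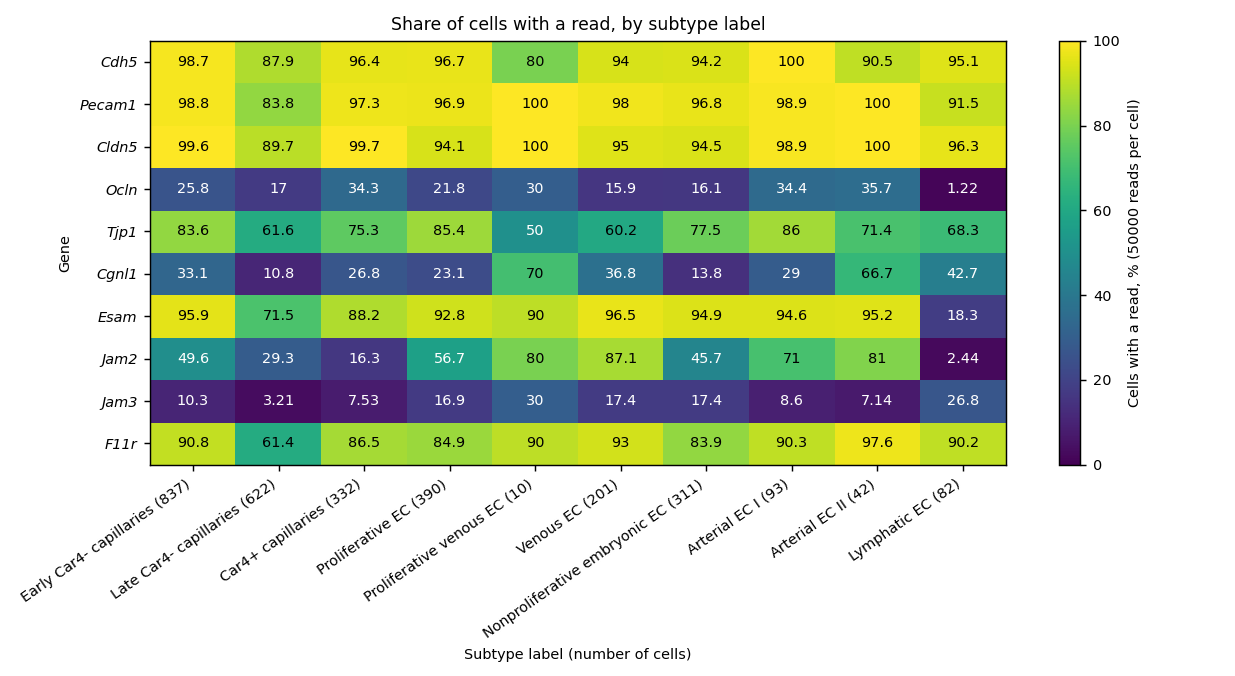
Percent of cells with at least 1 read of each gene after every cell was thinned to 50000 reads, by the authors' subtype label, with the number of cells in parentheses. Cdh5, Pecam1 and Cldn5 are read in most cells of every label, while Jam2, Ocln and Esam are rare in lymphatic cells.

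The first comparison was between the 2 capillary classes of the lung, Car4+ cells (the large, carbonic anhydrase 4 bearing capillary cells) and Car4- cells. Cldn5 rose and Jam2 fell in Car4+ cells, which makes 2 of 10 junction genes called at an adjusted p under 0.05, where 2.42% of all 15097 genes tested were called. The claudin was 4364 and 3379 CPM (Car4+, Car4-) in the male P7 mouse, the smallest gap, and 7922 and 3696 CPM in the male P1 mouse. The female mice had 6741 and 3288 CPM at P1, 5831 and 2549 at P7, and 4577 and 2960 at P21, and the male P21 mouse had 3420 and 2305. Cldn5 was higher in Car4+ cells in 6 of 6 normal-air mice and in both hyperoxia mice (4596 against 2825, and 7018 against 3752 CPM). The fitted log2 difference was 1.19 ± 0.23 (SE), or 2.275-fold, with an adjusted p of 0.00242 by edgeR's quasi-likelihood test, and it kept its call in all 16 alternatives.

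Jam2 went the other way, with large differences between mice. The pairs of Car4+ and Car4- levels were 88.1 and 261.7 CPM in the female P1 mouse, 291.0 and 319.3 in the male P1 mouse, and 7.93 and 149.3 in the female P7 mouse. They were 3.88 and 144.9 CPM in the male P7 mouse, 75.3 and 188.0 in the female P21 mouse, and 2.61 and 150.3 in the male P21 mouse. Jam2 was lower in Car4+ cells in 6 of 6 normal-air mice and in both hyperoxia mice, by a gap that was small at P1 in the male and more than 10-fold in both P7 mice and the male P21 mouse. The fitted log2 difference was -2.17 ± 0.56 (SE), adjusted p = 0.0345 by edgeR. The call was lost in 7 of 16 alternatives: without the female E18.5, female P1, female P7, male P7 or male P21 mouse (adjusted p 0.0552 to 0.157), without the mouse term (0.296) and with the hyperoxia mice added (0.142). In the female P21 mouse, 2123 of the 3777 Car4+ reads of Jam2 came from 1 cell.

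The other 8 genes were not called between the capillary classes. Cdh5 was higher in Car4+ cells in 6 of 6 normal-air mice and in 1 of 2 hyperoxia mice, with a log2 difference of 0.63 (95% interval 0.25 to 1.01) and an adjusted p of 0.0671 by edgeR and 0.0313 by DESeq2. For Pecam1 the interval was 0.08 to 1.06, for F11r 0.01 to 0.95 and for Tjp1 -0.71 to 0.64. Tjp1 in the male P7 mouse was an exception in level, with 603.2 CPM in Car4+ cells against 151.5 to 372.2 in the other normal-air mice. Of its 4665 reads, 2231 were in 1 cell of the gate named mesench, and the CD31-gate cells of that mouse had 206.1 CPM. Over the 10 genes the median log2 difference was 0.52, beside -0.22 over all genes tested.

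**Figure D3:**
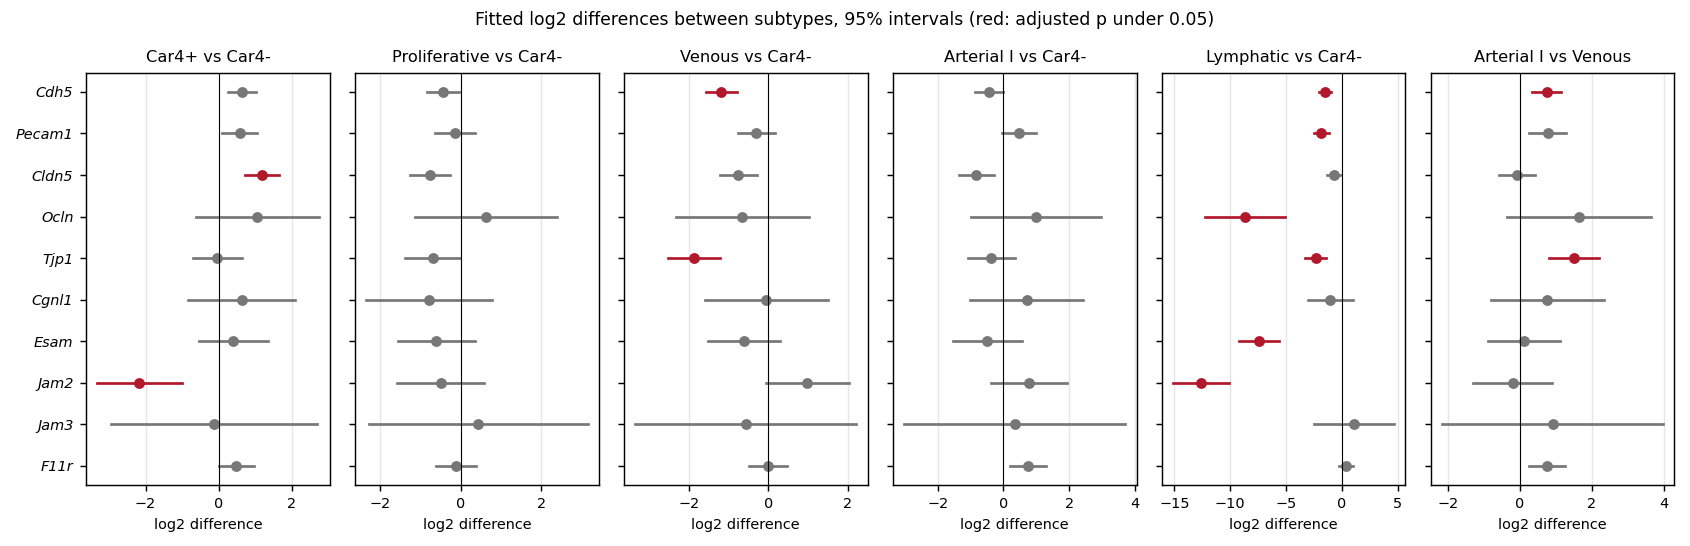
Fitted log2 differences of the 10 genes between subtype classes in normal-air mice (dots) with 95% intervals (lines), 1 panel per comparison, each with its own axis range; red marks an adjusted p under 0.05. Cldn5 and Jam2 are red for Car4+ against Car4-, Tjp1 and Cdh5 for venous, and 6 genes for lymphatic EC.

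Venous EC had less RNA of the adherens junction cadherin and of the ZO-1 scaffold than Car4- capillaries. These 2 of 10 genes were called, beside 1.5% of all genes. Tjp1 was 78.1 CPM at the lowest, 100.1 at the median and 201.0 at the highest over 7 normal-air venous sums, against 246.9, 353.3 and 603.8 in Car4- cells. The groups did not overlap, and Tjp1 was lower in venous cells in 6 of 6 mice and in both hyperoxia mice (47.0 against 224.6, and 45.1 against 244.7 CPM). Its log2 difference was -1.88 ± 0.32 (SE), or a level 0.272 times as high, adjusted p = 0.00102 by edgeR, and it kept its call in all 16 alternatives.

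Cdh5 ranged from 183.3 CPM over a median of 443.9 to 662.5 in venous sums, and from 568.5 over 1042 to 1227 in Car4- sums. The ranges overlapped across ages, but within each mouse the venous value was lower, in 6 of 6 normal-air mice and in both hyperoxia mice (235.6 against 675.4, and 238.6 against 1151 CPM). The log2 difference was -1.18 ± 0.19 (SE), adjusted p = 0.00041 by edgeR, and 0.0550 when the mouse term was left out. Jam2 was not called, although it was higher in venous than in Car4- cells in 6 of 6 mice and in both hyperoxia mice. Its venous levels ran from 298.9 to 711.4 CPM and its Car4- levels from 144.9 to 319.3, with a log2 difference of 0.98 (95% interval -0.07 to 2.03) and an adjusted p of 0.478. The other venous differences were not called, among them Cldn5 (-0.75, 95% interval -1.22 to -0.28, adjusted p = 0.1001 by edgeR, 0.00882 by limma) and F11r (-0.0043, 95% interval -0.47 to 0.47). The median over the 10 genes was -0.59, beside -0.17 over all genes.

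The comparisons of Cldn5 with Car4- cells changed with 1 mouse. The female E18.5 mouse had 13 cells with a Car4- label and 583.1 CPM of Cldn5 in them, against 2305 to 3696 CPM in the other 6 normal-air mice. Without all sums of that mouse, Cldn5 was called lower than in Car4- cells in proliferative EC (log2 -0.93, adjusted p = 0.00444), venous EC (-1.21, 6.12e-05), arterial I EC (-0.98, 0.0144) and lymphatic EC (-0.92, 0.00665). With all mice these log2 differences were -0.77, -0.75, -0.83 and -0.69, and none was called by edgeR. Which sums of that mouse bear on this was not tested, and some other alternatives gained the call too (4 of 16 in all for venous, 3 for arterial I, 2 for proliferative and 1 for lymphatic EC).

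Arterial I EC, the larger of 2 arterial labels, gave 0 of 10 calls against Car4- cells, beside 0.238% of all genes. Of the 10 genes, 3 had an unadjusted p under 0.05 by edgeR, beside 1996 of all 15097 genes. DESeq2 called 1 of the 10 (F11r, log2 0.84, adjusted p = 0.00751) while limma called 0. Against venous EC, 2 of 10 genes were higher in arterial I cells, beside 2.11% of all genes. Tjp1 was 286.8 (female) and 349.8 CPM (male) in arterial I cells at E18.5, 695.1 and 228.5 at P1 and 184.2 in the female P7 mouse. The venous values of the same mice were 100.1, 119.6, 201.0, 84.1 and 78.1 CPM, each lower than its arterial partner. The log2 difference was 1.51 ± 0.34 (SE), adjusted p = 0.0133 by edgeR, with a call lost without the female P1 mouse (0.0994) or the male E18.5 mouse (0.0795). Cdh5 was higher in arterial I cells in 4 of 5 mice (log2 0.74 ± 0.20 SE, adjusted p = 0.041), and lost its call in 11 of 16 alternatives. Among these were the fits without the female E18.5, P1, P7 or P21 mouse or the male E18.5 or P7 mouse (0.0571 to 0.243), and cells thinned to a fixed depth (0.314). F11r and Pecam1 were higher in 5 of 5 mice and were not called (log2 0.76 and 0.77, adjusted p = 0.118 and 0.109). Arterial II EC reached 8 cells in only the male P1 mouse and entered no test.

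Proliferative EC, the cycling cells that were most frequent at E18.5, gave 0 of 10 calls against Car4- cells, beside 0.788% of all genes. Among the 10, 3 had an unadjusted p under 0.05 by edgeR, beside 1185 of all 15097 genes, and DESeq2 and limma called 0. Log2 differences of the 10 genes ran from -0.79 (Cgnl1) to 0.63 (Ocln) with a median of -0.46, beside -0.01 over all genes.

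Lymphatic EC had the most calls of the 6 subtype comparisons. Here 6 of 10 junction genes were lower than in Car4- capillaries and 0 were higher, beside 3.84% of all 15097 genes. The 4 others were Cldn5, F11r, Jam3 and Cgnl1. The lymphatic sums of at least 8 cells came from the female P1 (26 cells), male P1 (13) and male E18.5 mice (10), and only the P1 mice had both classes, so the male E18.5 mouse entered through its other classes. The 4 lymphatic markers (Prox1, Mmrn1, Reln, Flt4) summed to 5809 to 7336 CPM in lymphatic sums and to at most 617.7 in any other. Leukocyte genes summed to 171.0 CPM in the male E18.5 lymphatic sum and to 10.3 and 35.3 in the P1 sums. Laptm5 made up nearly all of the highest sum (170.9 CPM), while Tyrobp and Cd52 were at 0 and Ptprc and Coro1a reached at most 0.144 and 0.130 CPM. The proliferation markers (Mki67, Top2a, Birc5, Ccnb1) summed to 511.1 to 751.9 CPM in lymphatic sums and to 6.74 to 160.6 in Car4- sums, and their part in the result was not tested.

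The immunoglobulin-type genes Jam2 and Esam had the widest gaps. Jam2 had 3 reads in 3 of 62 normal-air lymphatic cells. The female P1 sum stood at 0.0648 CPM, the male P1 sum at 0.115 CPM and the male E18.5 sum at 0 reads, where 3 reads would be 0.433 CPM. Car4- cells of the P1 mice had 261.7 and 319.3 CPM. Pooled over the P1 mice the level in Car4- cells was 3213 times the lymphatic level (95% interval 1099 to 15580, counting error only). Adjusted p was 3.19e-08 by edgeR. Esam was 31.3, 0.0573 and 6.79 CPM in the female P1, male P1 and male E18.5 lymphatic sums, against 1303 and 728.2 CPM in Car4- cells of the P1 mice. Its log2 difference was -7.41 ± 0.87 (SE), adjusted p = 1.06e-06. Of 62 cells, 9 had a read of Esam.

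Among tight junction genes, Ocln and Tjp1 were lower in lymphatic cells and Cldn5 was not called. Ocln had 16 reads in 3 of 62 normal-air lymphatic cells. The pooled P1 level was 28.4 CPM in Car4- cells and 0.0608 CPM (2 reads) in lymphatic cells, a ratio of 466.9 (95% interval 129.2 to 3856, counting error only). Its adjusted p was 0.0021 by edgeR, and 0.0648 without the male P1 mouse. Tjp1 was 96.2, 142.9 and 61.7 CPM in the 3 lymphatic sums, against 484.0 and 361.5 CPM in Car4- cells of the P1 mice (log2 -2.34 ± 0.47 SE, adjusted p = 0.00199). RNA of the claudin stayed high, at 2326, 1978 and 3049 CPM, with a log2 difference from Car4- cells of -0.69 (95% interval -1.34 to -0.05, adjusted p = 0.283).

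RNA of the adherens cadherin and of PECAM-1 was lower but present. Cdh5 was 367.1, 403.9 and 441.5 CPM in the lymphatic sums of the female P1, male P1 and male E18.5 mice (log2 -1.48 ± 0.26 SE, adjusted p = 0.0005 by edgeR, and 0.0596 without the mouse term). Pecam1 was 698.1, 476.7 and 110.5 CPM (log2 -1.84 ± 0.34 SE, adjusted p = 0.000715). F11r was 734.8, 464.1 and 633.0 CPM (log2 0.36, 95% interval -0.26 to 0.98). Jam3 was read in 25 of 62 lymphatic cells and stood at 10.9, 33.6 and 75.8 CPM, with a log2 difference of 1.11 whose 95% interval (-2.49 to 4.71) spans 0. For Cgnl1 the interval was -3.06 to 0.97. The median log2 difference was -1.66 over the 10 genes and -0.15 over all genes tested, and the latter was 0.05 with RLE scaling, under which 6 genes were called as well.

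Sums of P7 lymphatic cells were not in that test. After hyperoxia Esam had reads in 8 of 20 of them, at 161.4 CPM in the female (14 cells) and 182.5 in the male mouse (6 cells). Jam2 had 319 reads in 2 of 20 cells, of which 307 were in 1 cell. In normal air at P7 there were only 6 lymphatic cells, in which 3 had a read of Esam (227 reads in all) and none had a read of Jam2, a number of cells too small to narrow its share. These values were not tested.

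The promoters of 4 genes are shown because they split between those that were lower in lymphatic cells (Ocln, Tjp1) and those that were not called there (Cldn5, F11r). RefSeq on GRCm38.p6 held promoters for 5 of the 10 genes (also Cgnl1), each running from 250 bases before to 50 bases after the start, in the direction of the gene. Ocln has 2 starts there, of which the one at the gene's outer end is shown. The Tjp1 start lies inside the annotated span of the gene. Capitals mark the only match of the ETS-type motif CCGGAA in the windows shown, and the window of the other Ocln start has none. The windows lie at chr13:100552669-100552968 (minus strand), chr7:65371195-65371494 (minus), chr16:18776597-18776896 (plus) and chr1:171437311-171437610 (plus).
Ocln: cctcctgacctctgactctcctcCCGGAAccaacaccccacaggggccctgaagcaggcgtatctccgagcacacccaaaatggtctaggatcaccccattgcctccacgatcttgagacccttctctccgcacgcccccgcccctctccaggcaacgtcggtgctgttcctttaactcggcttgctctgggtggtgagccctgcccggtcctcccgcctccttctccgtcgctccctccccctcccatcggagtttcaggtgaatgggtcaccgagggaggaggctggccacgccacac
Tjp1: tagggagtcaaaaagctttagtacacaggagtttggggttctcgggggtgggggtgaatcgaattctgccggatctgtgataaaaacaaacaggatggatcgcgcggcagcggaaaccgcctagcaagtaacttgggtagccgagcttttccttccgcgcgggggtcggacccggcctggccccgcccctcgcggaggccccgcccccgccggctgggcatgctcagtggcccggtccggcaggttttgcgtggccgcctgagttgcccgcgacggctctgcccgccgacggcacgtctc
Cldn5: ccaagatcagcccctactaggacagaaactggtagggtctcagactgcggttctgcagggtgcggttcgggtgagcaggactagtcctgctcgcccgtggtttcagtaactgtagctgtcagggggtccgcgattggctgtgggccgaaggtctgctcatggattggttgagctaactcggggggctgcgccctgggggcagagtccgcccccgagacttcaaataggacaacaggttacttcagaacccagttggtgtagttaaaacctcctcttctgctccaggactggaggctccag
F11r: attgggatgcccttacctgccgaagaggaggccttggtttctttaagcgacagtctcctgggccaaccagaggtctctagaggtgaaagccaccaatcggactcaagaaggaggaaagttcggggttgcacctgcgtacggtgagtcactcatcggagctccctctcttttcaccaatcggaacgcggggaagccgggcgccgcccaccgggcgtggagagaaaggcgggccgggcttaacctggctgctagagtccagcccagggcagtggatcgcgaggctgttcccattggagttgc
Their GC content was 64.0%, 65.3%, 58.3% and 60.3% in that order, above the median of 52.7% over 32851 promoters of 300 bases, and they hold 17, 31, 12 and 19 CpG, against a median of 7. On both strands, CCGGAA occurs in 14.9% of all promoters of that length. The other motifs searched had no match in these 4 windows. They were a second ETS-type motif, CAGGAA (in 30.6% of all promoters), the FOX-type motif TAAACA (13.4%), the SOX-type motif ACAAAG (18.7%) and the E-box CAGCTG (16.3%). The Cgnl1 promoter, which is not shown, has 1 match of CAGGAA, and Cgnl1 was not called in lymphatic cells either. Matches are letters in a window and not sites, and the data hold no measurement at these promoters.

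The 10 genes lie on 7 chromosomes in GENCODE M21 on GRCm38, and the build behind the counts is not given for mouse in the sources used here. The adherens gene Cdh5 (ENSMUSG00000031871) is at chr8:104101625-104144511 on the plus strand, and Pecam1 (ENSMUSG00000020717) at chr11:106654217-106750628 on the minus strand. Cldn5 (ENSMUSG00000041378) spans chr16:18776847-18778262 (plus), Ocln (ENSMUSG00000021638) chr13:100496507-100552718 (minus), Tjp1 (ENSMUSG00000030516) chr7:65296165-65527781 (minus) and Cgnl1 (ENSMUSG00000032232) chr9:71626509-71771602 (minus). Esam (ENSMUSG00000001946) spans chr9:37528078-37538319 (plus), Jam2 (ENSMUSG00000053062) chr16:84774123-84825928 (plus), Jam3 (ENSMUSG00000031990) chr9:27097384-27155421 (minus) and F11r (ENSMUSG00000038235) chr1:171437535-171464603 (plus). The counts are over exons of whole genes, so splice forms are not separated.

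Across the 7 classes of normal-air mice the genes fell into different orders of mean CPM. The classes hold different ages (embryonic EC only E18.5, lymphatic EC E18.5 and P1, Car4+ cells P1 to P21), so these means also carry differences between ages. Cdh5 went from Car4+ (1157 ± 367.6 SD, n = 6) over embryonic, Car4-, proliferative, arterial I and venous to lymphatic EC (404.2 ± 37.2, n = 3), and each neighbour overlapped the next. Cldn5 went from Car4+ (5476 ± 1672, n = 6) and Car4- (2680 ± 1043, n = 7) to venous EC (1609 ± 514.5, n = 7), and lymphatic EC (2451 ± 546.3, n = 3) came right after Car4-. Jam2 went from venous (491.1 ± 162.2, n = 7) and arterial I (471.9 ± 136.4, n = 5) to Car4+ (78.1 ± 111.0, n = 6), with lymphatic EC (0.0598 ± 0.0575, n = 3) below and without overlap. Esam and Ocln also had a last step to lymphatic EC without overlap, and all other neighbouring classes of the 10 genes overlapped.

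Ages were compared within classes, with 2 mice per group. None of the 10 genes was called by edgeR in any of the 8 age comparisons or against embryonic EC, and few genes of any kind were. In Car4- cells the background was 0.0% for P7 against P1 and 0.267% for P21 against P7, and 0.494% for embryonic EC at E18.5 against Car4- cells at P1. In Car4+ cells it was 0.0% for P7 against P1 and 0.00814% for P21 against P7. In proliferative EC it was 0.0% for P1 against E18.5 and 0.0% for P7 against P1, and in venous EC 0.0162% and 0.0%. Members with an unadjusted p under 0.05 numbered 4 (Car4- P7 against P1), 1 (Car4- P21 against P7), 3 (Car4+ P7 against P1), 1 (proliferative P7 against P1), 1 (venous P7 against P1) and 0 in the rest. In the same order, genes of any kind under that cut numbered 1632 and 1484 of 14967, 772 of 12284, 1287 of 13102 and 396 of 12326. DESeq2 called 1 gene in these comparisons, Jam2 in Car4+ cells at P7 against P1, and limma called 0.

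P1 and P7 values of the members were set side by side in 4 classes, always in the same 4 mice, so the classes are not separate evidence. With so few mice per age, values can easily lie apart, and the share of all genes that did so was not counted. Both P7 mice lay above both P1 mice in 4 classes for F11r, 3 for Esam, 3 for Ocln and 2 for Jam3. They lay below in 4 classes for Jam2, 3 for Cdh5, 2 for Cldn5 and 2 for Tjp1. Cgnl1 was apart in 1 class in each direction and Pecam1 in 0. F11r (JAM-A) was 535.4 (female) and 323.9 CPM (male) at P1 and 971.0 and 816.4 at P7 in Car4- cells. It was 532.6 and 347.8, then 1045 and 780.8 CPM in Car4+ cells, 444.4 and 245.2, then 1001 and 760.4 in venous cells, and 308.4 and 361.3, then 631.2 and 554.0 in proliferative cells. The P7 mice were above the P1 mice in all 4 classes. The log2 differences were 0.98, 1.20, 1.33 and 0.66, with adjusted p of 0.438, 0.730, 1.0 and 0.575 by edgeR.

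Jam2 ran the opposite way. Its P1 and P7 levels were 261.7 and 319.3 against 149.3 and 144.9 CPM in Car4- cells, and 88.1 and 291.0 against 7.93 and 3.88 CPM in Car4+ cells. In venous cells they were 711.4 and 562.5 against 298.9 and 387.0 CPM, and in proliferative cells 257.3 and 191.4 against 124.7 and 142.9 CPM. The P7 mice were below the P1 mice in all 4 classes, with log2 differences of -1.11, -4.99, -0.96 and -0.88. The Car4+ difference had an SE of 1.39 and an adjusted p of 0.730 by edgeR. It was called by DESeq2 (0.00187), with no filter on low counts (0.00313) and without the male P21 mouse (0.0112). Cells with a read of Jam2 among Car4+ cells numbered 25 of 59 and 8 of 17 at P1, 11 of 42 and 4 of 24 at P7, and 7 of 57 and 4 of 77 at P21.

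Cdh5 was 1051 and 1065 CPM at P1 and 568.5 and 586.5 at P7 in Car4- cells, and 1042 and 910.8 at P21 (P7 against P1 log2 -0.99, adjusted p = 0.438). P1 and P7 mice were also apart in Car4+ cells (1372 and 1206 against 686.2 and 833.2 CPM) and venous cells (443.9 and 410.3 against 183.3 and 265.8 CPM). In proliferative cells they overlapped. Esam was 1303 and 728.2 CPM at P1 and 1467 and 1621 at P7 in Car4- cells (log2 0.53, adjusted p = 0.643). Ocln in Car4- cells was 32.8 and 24.8 CPM at P1 and 91.7 and 59.8 at P7 (log2 1.31, adjusted p = 0.438). No P1 mouse shared a sequencing run with a P7 mouse in the CD31 gate, so run and age cannot be told apart here.

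From P7 to P21 in Car4- cells, Cgnl1 was 96.5 and 96.7 CPM and then 47.2 and 23.5 (log2 -1.36 ± 0.45 SE, adjusted p = 0.328). In the female P7 sum 7312 of the 17788 Cgnl1 reads were in 1 cell, and in the male P21 sum 1169 of 2895. Jam2 in Car4+ cells had a log2 difference of 2.61 ± 1.25 (SE, adjusted p = 0.858) for the same step, but the mice overlapped, with 7.93 and 3.88 CPM at P7 and 75.3 and 2.61 at P21. The male P7 and P21 mice shared a run in the CD31 gate. Embryonic EC at E18.5 stood within -0.85 (Jam2) and 1.22 (Jam3) of P1 Car4- cells on the log2 scale, with no unadjusted p under 0.05. The 2 E18.5 mice, sequenced in different runs, differed in Cldn5 in embryonic EC (1383 CPM in the female, 2766 in the male), in proliferative EC (943.2 and 2139) and in arterial I EC (711.2 and 2271). Cdh5 was the other way round in the same classes (1291 and 708.1, 1143 and 634.7, 1338 and 707.5 CPM). In venous EC the female and male values lay close, at 1965 and 1859 CPM for Cldn5 and 646.1 and 662.5 for Cdh5. With 1 mouse of each kind, this was not tested, and sex and run cannot be told apart.

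**Figure D4:**
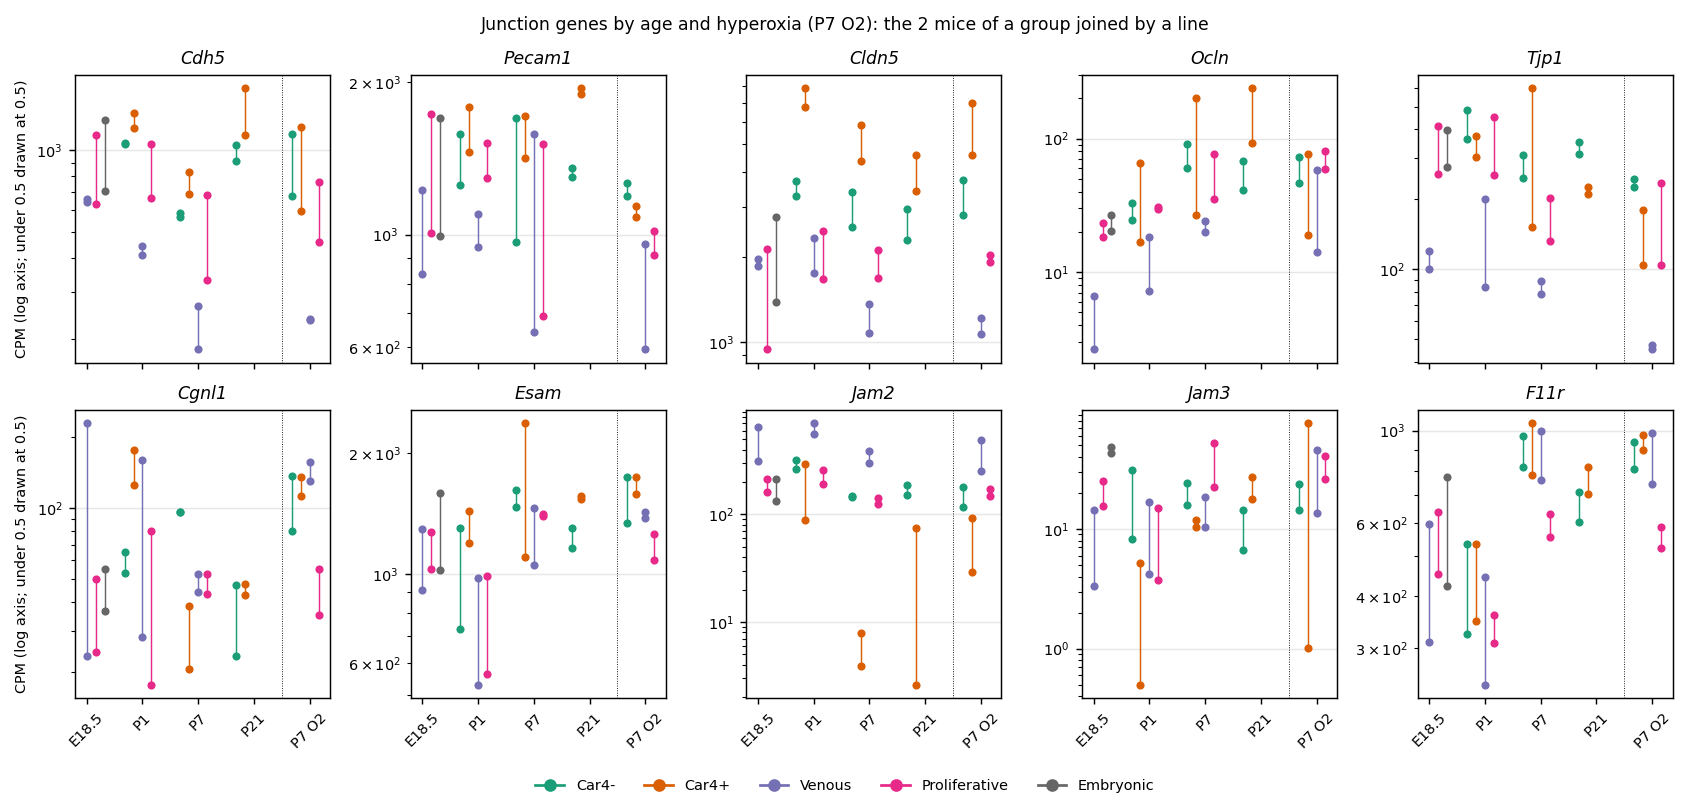
CPM (log axis) of the 10 genes at each age in normal air and at P7 after hyperoxia (P7 O2, right of the dotted line), with the 2 mice of a group and class joined by a line and values under 0.5 drawn at 0.5. F11r is higher and Jam2 lower at P7 than at P1 in all 4 classes with both ages. Cases where both hyperoxia mice lie above both P7 mice include Jam2 and Cgnl1 in Car4+ cells, Cgnl1 in venous cells and Cdh5 in Car4- cells. Tjp1 in venous cells is among those where they lie below. The share of all genes with values apart in these ways was not counted.

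Hyperoxia at P7 was compared with normal air at P7. None of the 10 genes was called by edgeR, DESeq2 or limma in Car4-, Car4+, proliferative or venous EC, where 0.00668%, 0.0%, 0.0% and 0.0% of all genes were called. Unadjusted p-values under 0.05 numbered 0, 3, 0 and 0, beside 812 of 14967, 757 of 12284, 339 of 13102 and 331 of 12326 genes of any kind. In Car4- cells the log2 differences stayed between -0.38 (Ocln) and 0.64 (Cdh5). For Cldn5 there the 95% interval was -0.83 to 1.09, and for Jam2 -0.87 to 0.83. Changes of nearly 1 on the log2 scale in either direction thus lay within these intervals, which are not limits of detection.

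The 3 genes in Car4+ cells were Jam2, Tjp1 and Cgnl1. Jam2 was 93.2 (female) and 29.1 CPM (male) after hyperoxia and 7.93 and 3.88 in normal air (log2 3.14 ± 1.27 SE, adjusted p = 0.731). Tjp1 was 103.8 and 179.2 CPM after hyperoxia and 151.5 and 603.2 in normal air (log2 -1.78 ± 0.69 SE, adjusted p = 0.731), and the high value is the one with 2231 of 4665 reads in 1 cell. Cgnl1 was 112.8 and 135.6 CPM after hyperoxia and 20.6 and 38.4 in normal air (log2 1.76 ± 0.72 SE, adjusted p = 0.731). The higher Cgnl1 and Jam2 values also rest in large part on single cells. After hyperoxia the top cell held 754 of 1349 (female) and 1746 of 4039 (male) Cgnl1 reads, and 37.4% and 44.4% of the Jam2 reads. In normal air it held 35.9% and 23.6% for Cgnl1, and 25.8% and 70.0% for Jam2. The male mice shared a run in the CD31 gate. Within it, the hyperoxia and normal-air values were 29.1 and 10.1 CPM for Jam2, 179.2 and 206.1 for Tjp1, and 135.6 and 99.8 for Cgnl1.

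The difference of the hyperoxia effects between classes was tested as an interaction, and 0 of 10 genes were called by edgeR for Car4+, venous or proliferative against Car4- cells, beside 0.0%, 0.0% and 0.0% of all genes. Unadjusted p-values under 0.05 numbered 2 (Jam2, Cgnl1), 1 (Cgnl1) and 0, beside 438 of 13240, 483 of 13379 and 465 of 13781 genes of any kind. For Jam2 the Car4+ effect exceeded the Car4- effect by 3.05 ± 0.78 (SE) on the log2 scale, with an unadjusted p of 0.00498 and an adjusted p of 1.0 by edgeR, and of 0.0472 by DESeq2. For Cgnl1 the excess in venous cells was 1.49 ± 0.48 (SE), adjusted p = 1.0. Cgnl1 in venous cells was 130.9 and 157.6 CPM after hyperoxia and 44.0 and 52.7 in normal air.

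A list of 39 further junction genes (adherens partners, tight junction scaffolds and claudins, border adhesion molecules, and regulators of the Rap1 and CCM pathways) was read in the same fits. Between Car4+ and Car4- cells 2 of 38 tested were higher and 1 lower, beside 2.42% of all genes called. Icam2, an endothelial ligand of leukocyte integrins, was 2573 to 6056 CPM in Car4+ cells and 350.0 to 2896 in Car4- cells (log2 1.72, adjusted p = 6.65e-07). Nectin3, an adhesion protein of adherens junctions, was 343.3 to 892.8 against 3.30 to 132.4 CPM (log2 2.87, adjusted p = 0.0357). Ptprb, the phosphatase VE-PTP that binds VE-cadherin and TIE2, was 10.8 to 219.3 CPM in Car4+ and 680.7 to 2540 in Car4- cells (log2 -4.36 ± 0.33 SE, adjusted p = 9.99e-10). The groups did not overlap for Nectin3 and Ptprb, and they did for Icam2.

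In venous cells 1 of 38 was higher and 2 were lower than in Car4- cells, beside 1.5% of all genes called. Ptprb was higher (1609 to 4013 CPM, log2 1.23, adjusted p = 0.0179). Afdn (afadin, which links nectins to actin) was lower, with 81.7 to 240.5 CPM in venous and 203.4 to 499.1 in Car4- cells (log2 -0.97, adjusted p = 0.0253). Rap1a, a small GTPase that acts on junctions, was also lower (11.2 to 116.8 against 108.9 to 385.4 CPM, log2 -1.57, adjusted p = 0.0456).

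In lymphatic cells 1 of 38 was higher and 4 were lower, beside 3.84% of all genes called. Cldn11, a claudin, had 2378 reads in the lymphatic sums of the female P1, male P1 and male E18.5 mice (140.1, 1.95 and 26.6 CPM) and 19 reads over 7 Car4- sums (adjusted p = 0.00191). Pcdh1 (0.130 to 1.66 against 36.3 to 265.1 CPM, log2 -8.06, adjusted p = 5.13e-08) and Mcam (0.433 to 16.02 against 204.8 to 632.0 CPM, log2 -5.48, adjusted p = 5.10e-06) are adhesion molecules of the cell border. Ptprb was 110.0 to 249.6 CPM (log2 -2.33, adjusted p = 0.000579) and Icam2 318.2 to 852.0 CPM (log2 -1.78, adjusted p = 4.22e-05). By edgeR the list had 0 calls in proliferative and arterial I cells and in the age and hyperoxia comparisons, and 1 call, Pcdh1, in embryonic EC against P1 Car4- cells (log2 -1.97, adjusted p = 0.0352). Unadjusted p-values under 0.05 in the list numbered 1 for proliferative and 6 for arterial I against Car4- cells, and from 0 to 8 in the age and hyperoxia comparisons. Over all 15097 genes tested they numbered 1185 for proliferative and 1996 for arterial I cells. In the age and hyperoxia comparisons they ran from 331 of 12326 to 1632 of 14967 genes. For embryonic EC against P1 Car4- cells, 11 of 37 list genes were under that cut, beside 1410 of all 14967 genes. The medians of the list were -0.04, -0.45 and -0.68 for Car4+, venous and lymphatic against Car4- cells, beside -0.22, -0.17 and -0.15 over all genes.

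Over 48 sums of a mouse and class, the genes whose log2(CPM + 1) ran most like a member's were searched among 7072 genes. These are descriptions over sums that share mice and runs. Esam ran most like Nrp1 (Pearson r = 0.893) and Foxf1 (0.889), Jam2 like Cd93 (0.828), Cdh5 like Smarca2 (0.822), Cldn5 like Ecscr (0.821), F11r like Klhdc2 (0.811), Ocln like Plscr1 (0.776) and Pecam1 like Ace (0.774). Tjp1 (Clec9a, 0.741), Cgnl1 (Exoc3, 0.677) and Jam3 (Wdr12, 0.642) had weaker partners. Among the members, Cdh5 and Tjp1 had the highest correlation (0.70), then Esam and Jam2 (0.63), and Pecam1 and Jam3 the lowest (-0.34).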

How the data were processed

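The deposited table holds whole-number read counts for every gene in every cell, as the authors left them before any scaling. The submitters' processing notes name STAR 2.5.2b and HTSeq 0.10 and a human build (GRCh38), so the mouse build behind the counts is not given in the sources used here. Strand handling is not given either. Each deposited sample is 1 cell, and no 2 cells had identical counts. Doublets were not called. Reads were summed per mouse and class, for sums of at least 8 cells, and tested in R 4.3.3 with edgeR 4.0.16 (TMM, filterByExpr, quasi-likelihood F test). P-values were adjusted over all genes tested (Benjamini-Hochberg), with calls under 0.05. Subtype contrasts used the 8 normal-air mice with the mouse as a term, since classes with the same mouse name come from the same animal or pool. Age and hyperoxia models held all groups of a class, and the Car4- model also embryonic EC. Alternatives were DESeq2 1.42.0, limma 3.58.1 on log2(mean CPM + 1), RLE scaling, no filter, CD31-gate cells, cells thinned to 50000 reads (11 shallower cells left out), sex as a block, leaving out each mouse, and for subtypes no mouse term or hyperoxia mice added. The fits were tested on simulated data. All 10 junction genes are named, further genes of the list of 39 by size among those called, up to 3 per direction (Icam2 in lymphatic cells was added after its value was seen), and the genes most like a member by correlation among those of at least 20 CPM. The junction genes and lists were chosen with earlier results of these data known. P-values measure the spread between mouse names, and intervals of pooled reads reflect counting alone, as libraries without molecular identifiers count PCR copies.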

Additional observations from a re-analysis of the deposited data

How the results depend on the processing

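Log2 changes were recomputed under alternatives only for members with an unadjusted p under 0.05 in the edgeR fits above. That choice favours changes with a clear direction in these data, so the lack of reversals is no independent support. Of 635 such recomputed changes, 592 kept their direction and call, 20 gained and 23 lost the call, and 0 reversed. The 592 include changes that were not called in either fit. Leaving out the mouse term (no replicate block) gave 1 of 10 junction genes called for Car4+ against Car4-, 1 for venous against Car4- and 1 for arterial I against venous (each 2 with the block). With hyperoxia mice added the count was 1 for Car4+ and 1 each for proliferative and arterial I against Car4- (0 before). DESeq2 gave 1 for arterial I against Car4-, 1 for Car4+ at P7 against P1 and 1 for the hyperoxia effect in Car4+ against Car4- cells (each 0 with edgeR). RLE scaling, no filter and CD31-gate cells alone each gave 1 for arterial I against venous, no filter gave 1 for Car4+ at P7 against P1, and thinned cells gave 1 for arterial I against Car4-. Leaving out 1 mouse gave 1 to 2 for Car4+, 0 to 1 for proliferative and 0 to 1 for arterial I against Car4-, 2 to 3 for venous and 5 to 7 for lymphatic against Car4-, 0 to 2 for arterial I against venous and 0 to 1 for Car4+ at P7 against P1. Lymphatic against Car4- (6) fell to 5 without the block, DESeq2 gave 3 for Car4+ against Car4- and 3 for arterial I against venous, and limma gave 3 for venous against Car4- and 3 for arterial I against venous. Venous against Car4- also had 3 with thinned cells and with hyperoxia mice added, and arterial I against venous 3 with the latter. The cause of these changes was not tested. Sex as a block changed no call. Of the mean levels by class, 62 stayed within 1 SD and 8 moved by over 1 SD when sums of under 8 cells were let in, all in lymphatic or embryonic EC. With 2 mice per group, the age and hyperoxia comparisons leave intervals of about 1 log2 unit on either side even for well expressed members.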

Other observations

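Cgnl1, the paracingulin gene, stood apart in arterial I EC after hyperoxia. It had 28 reads in 4 of 24 arterial I cells of the hyperoxia mice, at 0.896 CPM in the female (15 cells) and 3.01 CPM in the male (9 cells). The normal-air sums of at least 8 cells had 168.2 and 105.3 CPM at E18.5, 131.4 and 52.5 at P1 and 106.0 in the female P7 mouse, and Cgnl1 was read in 35 of 72 normal-air arterial I cells. The male P7 mouse had 4 such cells (225.6 CPM), and the female P21 mouse had 1, without a read. Thus the female P7 sum was the only normal-air one of at least 8 cells at the age of the hyperoxia mice. In it 1157 of 1659 Cgnl1 reads were in 1 cell. The top cell held 175 of 244 reads in the male P1 sum and 668 of 1251 in the male E18.5 sum. In the female E18.5 and P1 sums it held 37.5% and 29.0%. Arterial I cells had no hyperoxia test, and the gene was singled out after its values were seen.

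Members were also read by sort gate within a mouse. In the male P21 mouse Pecam1 was 1517 CPM in 83 Car4- cells of the mesench gate and 1150.0 in 184 of the CD31 gate, and in the female P21 mouse 2126 in 50 and 1209 in 221. In Car4+ cells the values were 2574 and 1113 CPM in the male P21 mouse and 3107 and 1652 in the female P21 mouse. Over the 7 pairs of gates with at least 5 cells each, Pecam1 was higher in the mesench gate in 6, and lower in Car4+ cells of the female P7 mouse (1046 and 1471 CPM, the former from 5 cells). F11r was also higher in the mesench gate in 6 of 7 pairs, Esam, Tjp1 and Ocln in 5, Cdh5 and Jam2 in 4, and Cldn5, Cgnl1 and Jam3 in 1. Ocln in Car4+ cells of the male P21 mouse was 393.0 CPM in the mesench gate and 37.4 in the CD31 gate, and 6234 of its 11943 reads in the mesench gate were in 1 cell. Some pairs are the Car4- and Car4+ cells of the same mouse, so the pairs are not separate evidence. The share of all genes higher in the mesench gate was not counted. Gates of a mouse were sequenced in different runs, and these values were not tested.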
